A study of Homo sapiens with 8 samples.

Results

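A set of 10 chemokine genes was followed through the response of a lung cancer cell line to rosiglitazone and carboplatin. The genes were CXCL8, CXCL1, CXCL2, CXCL3, CXCL5, CXCL6, CXCL10, CX3CL1, CCL2 and CCL20. All 10 genes are read by the Affymetrix human array used, on which a gene has 1 or more probe sets, and they take up 14 of its 22283 probe sets. Members were chosen by gene symbol in the array's annotation, which names 11963 genes by a probe set of 1 symbol.

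The cells were a human non-small cell lung adenocarcinoma line that the labels do not name. They were grown overnight in serum-containing medium and then treated for 24 h. The groups were rosiglitazone at 1 µM, carboplatin at 10 µM, the combination of both drugs, whose doses the labels do not restate, and control medium, which the series design also describes as DMSO/control. Each group had 2 arrays, 8 in all, and whether these came from separate cultures is not given in the labels, so every p-value reflects no more than how far these arrays differ, and that spread may be technical. Rosiglitazone activates PPARγ, a nuclear receptor, and carboplatin crosslinks DNA.

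Chemokines are small secreted proteins that draw leukocytes along a gradient through G protein-coupled receptors. The CXC chemokines CXCL8, CXCL1, CXCL2, CXCL3, CXCL5 and CXCL6 share a glutamate-leucine-arginine motif, act on CXCR2 (CXCL8 and CXCL6 also on CXCR1) and recruit neutrophils. CXCL10 lacks that motif and attracts T cells through CXCR3, CCL2 attracts monocytes through CCR2, CCL20 acts on CCR6, and CX3CL1 is a membrane-tethered ligand of CX3CR1. Epithelial cells make several of them when NF-κB, AP-1 and C/EBP factors bind close to the gene start. Liganded PPARγ is known to restrain inflammatory genes of this kind in macrophages.

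The start regions are shown first because several of these genes are neighbours on chromosome 4. RefSeq windows on GRCh38.p14, running from 250 bases before to 50 bases after the gene start, were found for 8 of the 10 genes, the others being CX3CL1 and CCL2. Lined up on the gene start, the windows of CXCL1, CXCL2 and CXCL3 were identical to each other at 48.3% to 68.7% of positions. No gaps were allowed, so windows shifted by 1 base score low. Those of CXCL5 and CXCL6, alike in the stretches printed below, were identical at 33.3% of positions. That of CXCL8 was identical to the other windows at 23.3% to 30.7% of positions. The window of CXCL8, at chr4:73740319-73740618 on the + strand, is given whole, with an AP-1 type match (TGA and TCA parted by 1 base), an NF-κB type match (GGAATTTCC) and a TATA box (TATAAA) in capitals, in that order.
CXCL8: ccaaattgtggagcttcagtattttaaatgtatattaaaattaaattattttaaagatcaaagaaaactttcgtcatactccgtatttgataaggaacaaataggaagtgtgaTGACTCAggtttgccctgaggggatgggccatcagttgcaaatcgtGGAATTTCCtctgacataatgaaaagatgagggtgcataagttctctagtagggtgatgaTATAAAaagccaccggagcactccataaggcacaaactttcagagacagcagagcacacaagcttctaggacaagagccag

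The stretch around the NF-κB type match is set out below for the other CXC genes, each 5′ to 3′ on the gene's own strand, so that the shared core can be compared. They lie at chr4:73869295-73869343 (CXCL1, + strand), chr4:74099244-74099292 (CXCL2, - strand), chr4:74038739-74038787 (CXCL3, - strand), chr4:73998739-73998787 (CXCL5, - strand), chr4:73836569-73836617 (CXCL6, + strand) and chr4:76023645-76023693 (CXCL10, - strand). Capitals mark GGAATTTCC or, in CXCL10, its reverse complement.
CXCL1: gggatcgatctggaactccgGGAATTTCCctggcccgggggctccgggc
CXCL2: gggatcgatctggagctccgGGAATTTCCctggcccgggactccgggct
CXCL3: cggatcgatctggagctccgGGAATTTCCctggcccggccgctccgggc
CXCL5: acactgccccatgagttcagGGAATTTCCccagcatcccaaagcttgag
CXCL6: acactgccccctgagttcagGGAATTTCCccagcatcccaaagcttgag
CXCL10: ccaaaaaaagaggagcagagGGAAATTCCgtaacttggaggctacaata

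Searched on both strands, GGAATTTCC was present in 7 of these 8 windows, all but that of CCL20, against 162 of 35116 windows of the same length (0.461%). The stretches printed for CXCL1, CXCL2 and CXCL3 are alike, as are those for CXCL5 and CXCL6, so these 7 windows are not independent of each other. In the 6 neutrophil-attracting genes the match began between 91 and 77 bases before the start, and in CXCL10 it began 176 bases before it. The AP-1 type motif was found in CXCL8 alone of the 8 (7.71% of all windows), and TATAAA in CXCL8 and CCL20 (11.5% of all windows). A looser NF-κB type motif with 3 free positions, which overlaps GGAATTTCC, was in all 8 and in 17.1% of all windows. The consensus direct repeat to which PPARs bind with RXR was in 0 of the 8 and in 0.0228% of all windows. These are matches of letters and not measured binding. Of the 7 genes with the GGAATTTCC match, CXCL6 was too dim on the array to be tested. CXCL8 was the one with a call in the array data, on the brighter of its probe sets and not on the other. CCL2, the other called gene, had no window here.

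**Figure D1:**
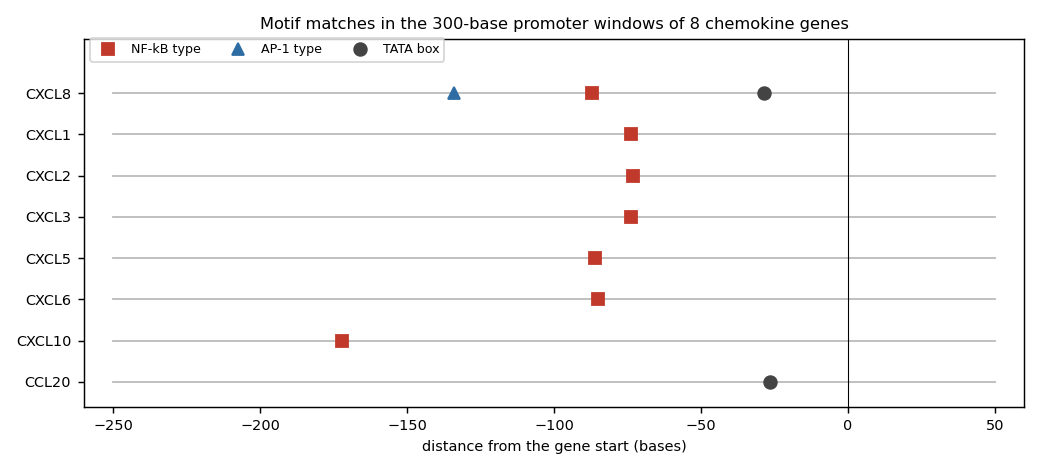
Matches to the NF-κB type motif (squares), the AP-1 type motif (triangle) and the TATA box (circles) in the promoter windows of 8 chemokine genes, by distance in bases from the gene start (vertical line). The squares of CXCL8, CXCL1, CXCL2, CXCL3, CXCL5 and CXCL6 lie within a narrow band before the start, and that of CXCL10 lies farther out.

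The deposited signals ran from 0.0322 to 14940.6, with array medians from 36.2 to 54.3, and were taken as log2(signal + 16) and quantile normalized, so that a signal of 0 would sit near 4. Correlations between arrays ran from 0.964 to 0.984, and those within a group from 0.974 to 0.976. Signal ratios of 3′ to 5′ probe sets spanned 0.833 to 1.05 (GAPDH) and 0.938 to 1.39 (ACTB), and the rosiglitazone arrays held both ACTB extremes. The PPAR targets ANGPTL4, PLIN2 and PDK4 were called higher in the arrays with rosiglitazone than in those without (2.81 ± 0.16, 1.69 ± 0.08 and 1.75 ± 0.22), and the p53 targets CDKN1A and GDF15 in those with carboplatin than in those without (1.54 ± 0.13 and 1.23 ± 0.11). Of 9 lung epithelial markers 7 were above the filter on dim probe sets, EPCAM and NKX2-1 being below it. Of the markers of other cell types, 1 of 8 for leukocytes, 0 of 5 for endothelium and 2 of 7 for fibroblasts were above it (ITGAM, COL1A1 and DCN). Marker signals were summed from the deposited values without normalization, and array medians were highest on rosiglitazone 2 (54.3) and combination 2 (52.2). The lung epithelium sum was 10400 to 14400 with rosiglitazone and 9990 to 14300 with the combination. It was 8410 to 9860 with carboplatin and 9330 to 10900 in control. The summed leukocyte marker signal was 130 to 145 with rosiglitazone and 119 to 122 with carboplatin. It was 136 to 190 with the combination and 136 to 138 in control. The summed fibroblast marker signal was 247 to 262 with rosiglitazone, 205 to 276 with the combination and 187 to 208 in control. Its range with carboplatin overlapped that of every other group. Endothelium sums were 42.5 to 107 with rosiglitazone, 35.8 to 41.3 with carboplatin, 38.6 to 42.8 with the combination and 49.6 to 65.4 in control. The cause of these differences was not tested. A lower signal from fewer cells that make a chemokine cannot be told apart from less RNA per cell.

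A probe set was tested if its mean over the 8 arrays lay at or above the 40th percentile, a log2 value of 5.378. Of the 14 chemokine probe sets 9 passed, from 7 genes, and the nearest on either side were 211506_s_at of CXCL8 (mean 5.39) and 207852_at of CXCL5 (mean 5.32). All changes below are log2 differences from 1 linear model of the 8 arrays (limma) with their standard error, and their p-values were adjusted by the Benjamini-Hochberg method over 13338 probe sets and called below 0.05. The rosiglitazone main effect sets the 4 arrays with rosiglitazone against the 4 without it.

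**Figure D2:**
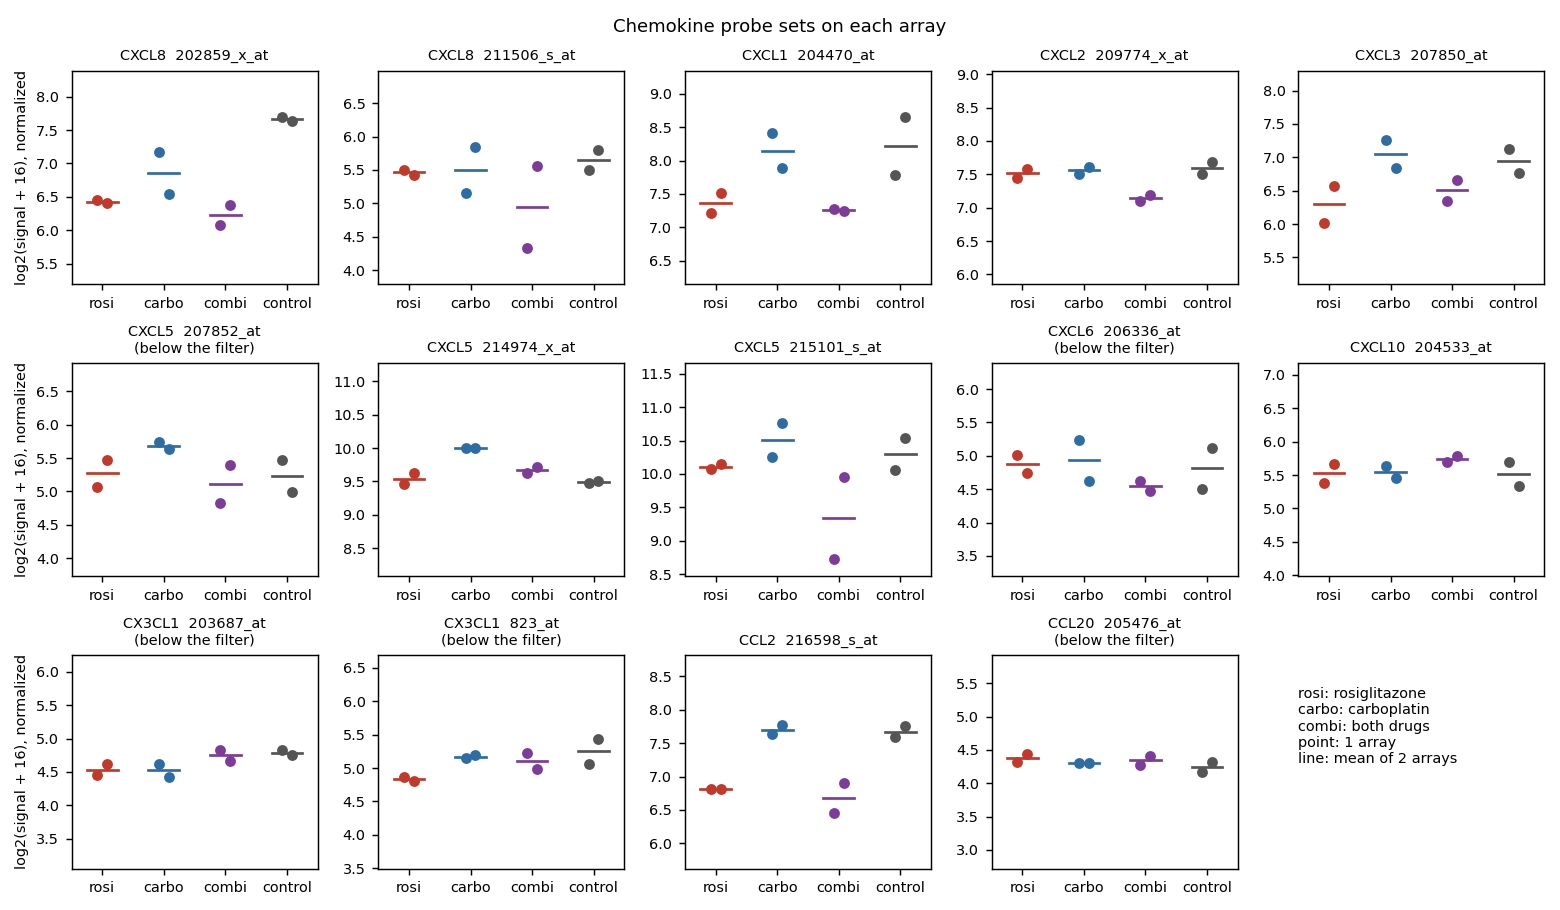
Normalized log2(signal + 16) of the 14 chemokine probe sets on each array, by group, with a line at the mean of the 2 arrays; each panel spans the same height. CXCL8 (202859_x_at), CXCL1, CXCL3 and CCL2 are lower on all 4 arrays with rosiglitazone than on the 4 without it.

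CXCL8, the main neutrophil chemokine of epithelial cells, fell with rosiglitazone on the brighter of its probe sets, 202859_x_at. The log2 values were 6.45 and 6.40 on the rosiglitazone arrays, 7.17 and 6.54 on the carboplatin arrays and 6.07 and 6.37 on the combination arrays, against 7.69 and 7.63 in control. The deposited signals were 72.3 and 86.9 on the rosiglitazone arrays, 104 and 79.7 on the carboplatin arrays and 43.4 and 81.9 on the combination arrays, against 208 and 149 in control. Every treated array was below both control arrays on either scale, and on the log2 scale the carboplatin arrays lay farther apart than those of any other group. The change was -1.23 ± 0.22 for rosiglitazone against control (2.35 times lower, adjusted p = 0.0488). It was -1.44 ± 0.22 for the combination against control (2.71 times lower, adjusted p = 0.0316), a comparison that uses the same control arrays. For carboplatin against control it was -0.81 ± 0.22 (adjusted p = 0.879), which did not pass.

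In the rosiglitazone main effect CXCL8 fell by 0.93 ± 0.16 on the log2 scale (1.91 times lower, adjusted p = 0.0173). The log2 values averaged 6.32 ± 0.17 with rosiglitazone and 7.25 ± 0.53 without it (SD, n = 4 arrays each), with no overlap, while in the deposited signals rosiglitazone 2 and combination 2 lay above carboplatin 2. Adding carboplatin to rosiglitazone gave a change of -0.21 ± 0.22, with a 95% interval from -0.70 to 0.29 that includes no change. The interaction, the change with rosiglitazone in the presence of carboplatin minus that in its absence, was 0.60 ± 0.32 (interval -0.09 to 1.3, adjusted p = 0.840), and it was 0.92 without carboplatin 1 and 0.29 without carboplatin 2. The call against control was lost without control 1 (adjusted p = 0.195), control 2 (0.245), rosiglitazone 1 (0.280), rosiglitazone 2 (0.163), combination 1 (0.0551) or combination 2 (0.0539). That of the combination was lost without control 1 (adjusted p = 0.169), control 2 (0.188), rosiglitazone 1 (0.0512), rosiglitazone 2 (0.0510), combination 1 (0.188) or combination 2 (0.0863), while the size stayed between -1.66 and -1.03 over its alternatives. The main effect did not pass without control 1 (adjusted p = 0.0808), control 2 (0.0715), rosiglitazone 1 (0.0617), rosiglitazone 2 (0.0595), carboplatin 1 (0.0617) or combination 1 (0.0728), and ranged from -1.09 to -0.66. It also did not pass in the deposited scaling (adjusted p = 0.216), with no filter (0.085), with no intensity trend (0.0758) or with array brightness as a covariate (0.0636). Rosiglitazone against control did not pass in the deposited scaling (0.332), median scaling (0.0717) or with a pseudocount of 1 (0.0599). Nor did it pass with no filter (0.189), no trend (0.186), the brightness covariate (0.137) or replicate number as a block. For the combination against control this held in the deposited scaling (0.0919), with no filter (0.154) and with no trend (0.137).

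The other CXCL8 probe set, 211506_s_at, did not pass in any comparison. Its log2 values were 5.50 and 5.43 on the rosiglitazone arrays, 5.15 and 5.84 on the carboplatin arrays and 4.33 and 5.56 on the combination arrays, against 5.50 and 5.80 in control. Only combination 1 stood apart, at a deposited signal of 3.73 where the other 7 arrays had 17.0 to 41.4. The rosiglitazone change was -0.18 ± 0.40 (interval -1.05 to 0.69) and the main effect -0.37 ± 0.28 (interval -0.98 to 0.25). The called probe set carries the suffix _x, Affymetrix's mark for probes that can read other sequences too, so the fall of CXCL8 rests on a single probe set of that kind.

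CCL2, the monocyte chemokine encoded on chromosome 17, away from the CXC cluster, also fell in the arrays with rosiglitazone. Its probe set 216598_s_at had log2 values of 6.81 and 6.81 on the rosiglitazone arrays, 7.64 and 7.77 on the carboplatin arrays and 6.46 and 6.91 on the combination arrays, against 7.59 and 7.76 in control. The deposited signals were 97.8 and 125 on the rosiglitazone arrays, 147 and 211 on the carboplatin arrays and 59.5 and 130 on the combination arrays, against 195 and 165 in control. The 4 arrays with rosiglitazone lay below the 4 without it on both scales, and the carboplatin arrays lay among or near the control arrays. The main effect was -0.95 ± 0.13 (1.93 times lower, adjusted p = 0.00509), the means being 6.75 ± 0.20 with rosiglitazone and 7.69 ± 0.09 without it (SD, n = 4 arrays each). This call held without each of the 8 arrays in turn, with adjusted p-values from 0.00751 to 0.0364. It was lost only in the deposited scaling (-0.75, adjusted p = 0.265), where the array as a whole shifted by a median of 0.17.

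For CCL2 each part of that contrast was of like size and did not pass alone. The change was -0.87 ± 0.19 for rosiglitazone against control (adjusted p = 0.0978) and -1.0 ± 0.19 for the combination against control (adjusted p = 0.0682). For the combination against carboplatin, which shares no arrays with the first of these, it was -1.03 ± 0.19 (adjusted p = 0.0817). Carboplatin against control gave 0.03 ± 0.19, with an interval from -0.38 to 0.44.

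CXCL1, CXCL2 and CXCL3 are close paralogs, once known as the GRO genes, and probe sets for one can read transcripts of the others. CXCL1 (204470_at) had log2 values of 7.21 and 7.51 on the rosiglitazone arrays, 8.41 and 7.89 on the carboplatin arrays and 7.27 and 7.24 on the combination arrays, against 7.79 and 8.66 in control. The 4 arrays with rosiglitazone were again below the 4 without it, but the control arrays differed by 0.87, a gap reached by 2.74% of all probe sets tested. The main effect of -0.88 ± 0.19 (adjusted p = 0.0604) did not pass. It passed without control 1 (-1.09, adjusted p = 0.0170) and with a filter at the 60th percentile (adjusted p = 0.0403), and was -0.66 without control 2 (adjusted p = 0.156). For the combination against carboplatin the change was -0.89 ± 0.26 (adjusted p = 0.427), against -0.87 ± 0.26 for rosiglitazone against control (adjusted p = 0.275; -1.3 without control 1 and -0.43 without control 2) and -0.97 ± 0.26 for the combination against control (adjusted p = 0.260; -1.4 without control 1 and -0.54 without control 2).

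CXCL3 (207850_at) also lay lower on the 4 arrays with rosiglitazone than on the 4 without it on the normalized scale, while the deposited signals overlapped. Its log2 values were 6.02 and 6.57 on the rosiglitazone arrays, 7.26 and 6.84 on the carboplatin arrays and 6.35 and 6.66 on the combination arrays, against 7.12 and 6.77 in control. The main effect was -0.60 ± 0.17 (adjusted p = 0.215), and rosiglitazone against control gave -0.65 ± 0.25 (adjusted p = 0.401). The combination gave -0.55 ± 0.25 against carboplatin and -0.44 ± 0.25 against control (adjusted p = 0.772 and 0.687).

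For CXCL2 (209774_x_at) the rosiglitazone arrays overlapped the control arrays. Its log2 values were 7.45 and 7.58 on the rosiglitazone arrays, 7.51 and 7.61 on the carboplatin arrays and 7.10 and 7.19 on the combination arrays, against 7.5 and 7.69 in control. On the normalized scale both combination arrays were below the other 6. Their deposited signals overlapped the others, combination 2 (161) lying above control 2 (155), rosiglitazone 1 (159) and carboplatin 1 (134). The change was -0.45 ± 0.16 against control (adjusted p = 0.447), -0.42 ± 0.16 against carboplatin (adjusted p = 0.680) and -0.37 ± 0.16 against rosiglitazone (adjusted p = 1.00), none of which passed. The interaction was -0.34 ± 0.22 (interval -0.83 to 0.15).

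CXCL5, another ligand of CXCR2, has 3 probe sets, of which 2 were above the filter and ordered the groups differently. For 214974_x_at the log2 values were 9.46 and 9.62 on the rosiglitazone arrays, 10.00 and 10.00 on the carboplatin arrays and 9.63 and 9.71 on the combination arrays, against 9.48 and 9.51 in control. The carboplatin arrays were the highest on this normalized scale. Their deposited signals overlapped the others, carboplatin 1 (802) lying below rosiglitazone 2 (1004) and combination 2 (1024). Carboplatin against control gave 0.51 ± 0.11 (unadjusted p = 0.000925, adjusted p = 0.561), which did not pass, and the carboplatin main effect was 0.32 ± 0.08 (adjusted p = 0.969). For 215101_s_at the values were 10.07 and 10.15 on the rosiglitazone arrays, 10.25 and 10.76 on the carboplatin arrays and 8.72 and 9.96 on the combination arrays, against 10.06 and 10.54 in control.

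Combination 1 was thus low on 215101_s_at of CXCL5 as on 211506_s_at of CXCL8. On these probe sets it lay 1.24 and 1.23 below combination 2, a gap reached by 0.645% and 0.69% of all probe sets tested, where the median gap was 0.21. The 3′ to 5′ ratios of combination 1 were 0.931 for GAPDH and 1.20 for ACTB, inside the range of the other arrays. For 215101_s_at the combination gave -0.96 ± 0.32 against control (adjusted p = 0.407) and -1.16 ± 0.32 against carboplatin (adjusted p = 0.353), while 214974_x_at gave 0.17 ± 0.11 and -0.33 ± 0.11 in these comparisons (adjusted p = 0.747 and 0.583). Without combination 2 the 215101_s_at change against carboplatin passed (-1.79, adjusted p = 0.0329), and so did its main effect (-0.99, adjusted p = 0.0160), which was -0.68 ± 0.23 with all arrays and -0.37 without combination 1. The dimmest probe set of the gene, 207852_at, was not tested, and its log2 values were 5.07 and 5.47 on the rosiglitazone arrays, 5.74 and 5.63 on the carboplatin arrays and 4.83 and 5.40 on the combination arrays, against 5.47 and 4.99 in control.

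CXCL10, an interferon-induced chemokine, was dim and did not pass in any comparison. Its log2 values were 5.38 and 5.67 on the rosiglitazone arrays, 5.64 and 5.45 on the carboplatin arrays and 5.69 and 5.78 on the combination arrays, against 5.70 and 5.33 in control. The main effect of rosiglitazone was 0.10 ± 0.18, with an interval from -0.30 to 0.50. The combination gave 0.22 ± 0.26 against control and 0.19 ± 0.26 against carboplatin.

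CXCL6, CX3CL1 and CCL20 were below the filter, so their changes could not be judged at this signal. CXCL6 (206336_at) lay between 4.47 and 5.24 over the 8 arrays and CCL20 (205476_at) between 4.17 and 4.44, near the floor of the scale. CX3CL1 lay between 4.43 and 4.83 on 203687_at and between 4.80 and 5.44 on 823_at. In a fit with no filter none of the 5 chemokine probe sets below it passed in any of the 8 comparisons.

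**Figure D3:**
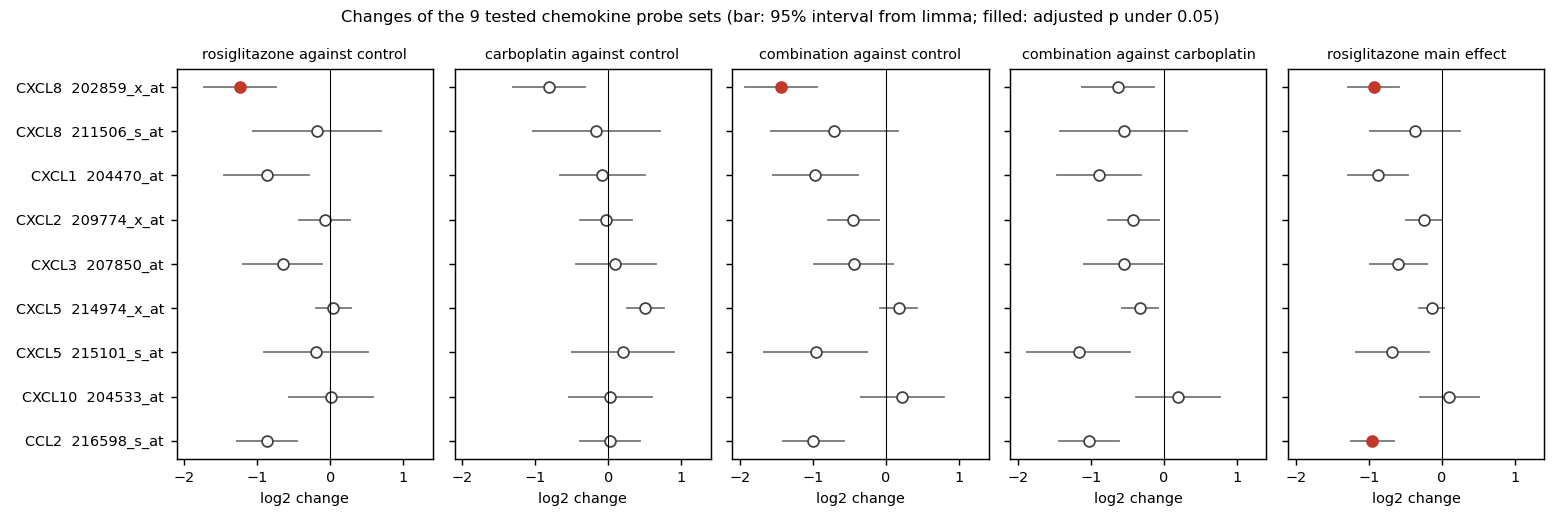
Log2 changes of the 9 tested chemokine probe sets in 5 comparisons, with 95% intervals from limma (bars); filled points passed an adjusted p of 0.05. CXCL8 (202859_x_at) passed for rosiglitazone and the combination against control, and CXCL8 and CCL2 in the rosiglitazone main effect; the open points did not pass.

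Counted together, 2 of the 9 tested probe sets were called lower in the rosiglitazone main effect and none higher, where 0.217% of all probe sets were called lower, 0.667% higher and 0.885% in either direction. The median change was -0.60 for the 9 and -0.01 for all probe sets, and 8 of 9 were lower against 52.2% of all. In the deposited scaling 7 of 9 were lower, 214974_x_at of CXCL5 turning to 0.04. There all probe sets shifted by a median of 0.17, and their share lower was not counted. With quantile normalization 4 of 9 (CXCL8 202859_x_at, CXCL1, CXCL3 and CCL2) had all 4 arrays with rosiglitazone below the 4 without it. This held for 2.95% of all probe sets. In 0 of 9 the arrays with rosiglitazone all lay above, as for 3.2% of all. In the deposited scaling the count lower with no overlap was 2 of 9 (CXCL1 and CCL2) and 0.18% of all. Against control, 1 of 9 was called lower with rosiglitazone (0.09% of all lower, 0.27% higher, 0.36% in either direction) and 1 of 9 with the combination (0.06% of all lower, 0.165% higher, 0.225% in either direction). Members of this family share regulators and partly probes, so they are not independent of each other.

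No chemokine probe set was called by limma in the other comparisons. Carboplatin against control called 0 of 9 (0.015% of all in either direction), with 2 of 9 at an unadjusted p under 0.05 (5.17% of all) and a median change of 0.03. The combination against carboplatin also called 0 of 9 (0.157% of all), with 7 of 9 at an unadjusted p under 0.05 (6.43% of all) and a median change of -0.55. The combination against rosiglitazone called 0 of 9 (0.0225% of all), with 2 of 9 at an unadjusted p under 0.05 (4.54% of all). The interaction called 0 of 9 and 0 of all, with 1 of 9 at an unadjusted p under 0.05 (5.97% of all). The carboplatin main effect called 0 of 9 (0.03% of all), with 2 of 9 at an unadjusted p under 0.05 (4.02% of all).

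Rosiglitazone against control and the combination against carboplatin share no arrays, so they give the change with rosiglitazone in the absence and presence of the platinum drug. Of the 9 probe sets 7 were lower in both comparisons and 1, that of CXCL10, was higher in both, where 27.6% of all probe sets were lower in both. In the deposited scaling 211506_s_at of CXCL8, CXCL2 and 215101_s_at of CXCL5 turned to 0.02, 0.17 and 0.05 for rosiglitazone against control, which left 4 of 9 lower in both and 6.36% of all. The value for 202859_x_at of CXCL8 was -0.63 ± 0.22 with carboplatin present (adjusted p = 0.621; -0.32 without carboplatin 1 and -0.95 without carboplatin 2) and -1.23 ± 0.22 in its absence. For 215101_s_at of CXCL5 the interaction was -0.97 ± 0.45 (interval -1.96 to 0.02) and for 214974_x_at -0.38 ± 0.16 (adjusted p = 0.821), so no difference between the settings passed.

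**Figure D4:**
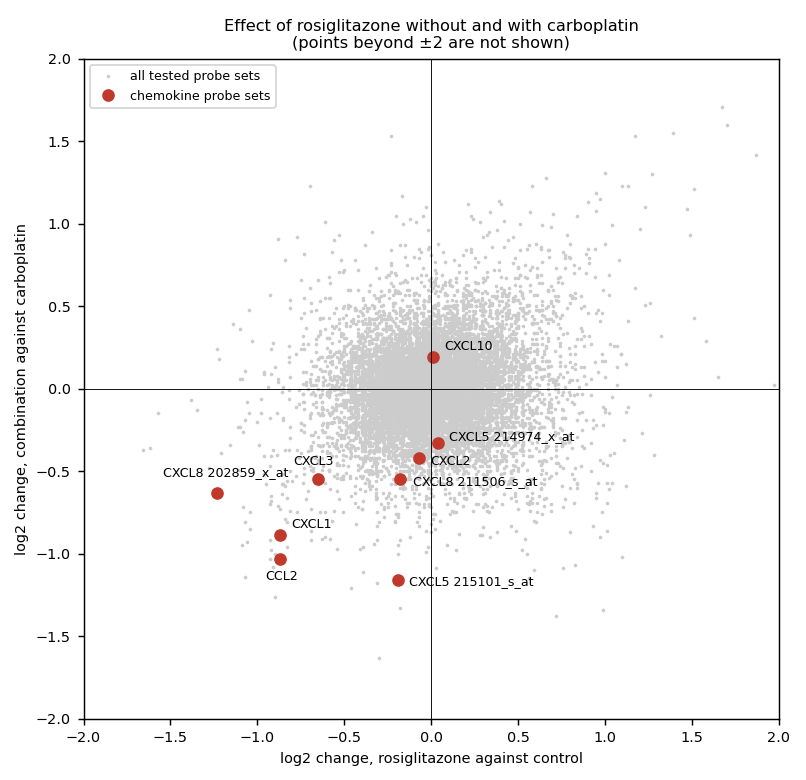
Log2 change of each tested probe set for rosiglitazone against control (horizontal) and the combination against carboplatin (vertical); grey points are all probe sets and red points the chemokines. CXCL8 (202859_x_at), CXCL1, CXCL3 and CCL2 lie to the lower left, and CXCL10 lies near the origin.

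Among genes outside the family, those whose values followed CXCL8 (202859_x_at) most closely over the 8 arrays were ARHGEF10 (Pearson r = 0.969), RNF113A (0.960), QTMAN (0.956), H4C4 (0.945) and GPR107 (0.935). These r-values are a description over arrays that fall into 4 groups, and the genes were picked for them. Within the family the r with CXCL8 was 0.79 for CCL2, 0.78 for CXCL1 and 0.68 for CXCL3, values that 299, 333 and 795 of all probe sets tested exceeded. It was 0.60 for CXCL2, 0.49 and -0.17 for 215101_s_at and 214974_x_at of CXCL5, 0.42 for the other CXCL8 probe set and -0.24 for CXCL10.

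In the lists that follow each gene is read by its brightest probe set, and 28 of the listed genes have more than 1 tested. The receptors for these ligands were mostly dim. Of 21 chemokine receptor genes on the array 3 were tested (CXCR4, CCR2 and CCR10), and none passed in the rosiglitazone main effect. CXCR4 gave 0.14 ± 0.31 on its brightest probe set and 0.66 ± 0.21 on 209201_x_at (adjusted p = 0.265). For rosiglitazone against control these probe sets gave -0.18 ± 0.43 and 1.07 ± 0.29 (adjusted p = 0.924 and 0.213). CXCR1, CXCR2, CXCR3, CX3CR1 and CCR6 were below the filter. Of 25 other chemokines 4 were tested and none passed, with main effects of 0.50 ± 0.21 for CCL5, -0.38 ± 0.21 for PF4, 0.20 ± 0.20 for CXCL9 and -0.09 ± 0.17 for CXCL12.

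The regulators of chemokine genes that passed were higher with rosiglitazone. Of 26 transcription factors and signalling genes tested, 2 were called higher and 0 lower in the rosiglitazone main effect. Of all probe sets 0.667% were called higher and 0.217% lower. By sign alone 10 of the 26 were higher and 16 lower, with a median of -0.09. JUN, a subunit of AP-1, rose by 0.90 ± 0.11 (adjusted p = 0.00302), and CEBPB, a C/EBP factor, by 0.47 ± 0.08 (adjusted p = 0.0173). The JUN value is that of 201464_x_at, also called for rosiglitazone against control (0.94 ± 0.16, adjusted p = 0.0404). Of its 3 other tested probe sets 201466_s_at was called in both (main effect 1.09 ± 0.14, adjusted p = 0.00356), and 201465_s_at (0.42 ± 0.38) and 213281_at (0.29 ± 0.14) were not, both being below 0 for rosiglitazone against control (-0.20 and -0.08). CEBPD (0.64 ± 0.15), the NF-κB subunit gene RELB (-0.34 ± 0.13), IRF1 (0.28 ± 0.11) and the kinase gene IKBKB (-0.37 ± 0.16; 0.12 ± 0.14 and 0.19 ± 0.22 on its other probe sets) did not pass.

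Of 17 inducing cytokines and cytokine receptors tested, 1 was called higher and 0 lower in the rosiglitazone main effect. The shares of all probe sets were 0.667% and 0.217%. By sign alone 12 of the 17 were higher and 5 lower, with a median of 0.15. TNFRSF1A, the main receptor for TNF, rose by 0.78 ± 0.09 (adjusted p = 0.0028), and was also called for rosiglitazone (0.77 ± 0.13, adjusted p = 0.0413) and the combination (0.81 ± 0.13, adjusted p = 0.0408) against control. IL11, a cytokine of the IL-6 family, was at -0.72 ± 0.15 (adjusted p = 0.0596) and did not pass, nor did OSMR (0.32 ± 0.18), IL6 (0.23 ± 0.14) or IFNGR2 (0.16 ± 0.12). Of 9 genes that govern decay of AU-rich mRNAs, a class to which chemokine transcripts belong, none passed, the smallest p-values being those of HNRNPD (-0.20 ± 0.08), ELAVL1 (-0.11 ± 0.10), MAPKAPK2 (-0.10 ± 0.10) and KHSRP (-0.11 ± 0.12). Other probe sets of these genes, none of which passed, gave values on either side of 0, such as 0.24 ± 0.15 for MAPKAPK2 and 0.01 ± 0.15 for ELAVL1. Of 7 lung epithelium markers tested, 6 were higher and 1, KRT18 (-0.17 ± 0.06), lower in the rosiglitazone main effect, with a median of 0.13. KRT7, a keratin, was the 1 called (0.56 ± 0.09, adjusted p = 0.0138), and its part in the chemokine values was not tested.

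**Figure D5:**
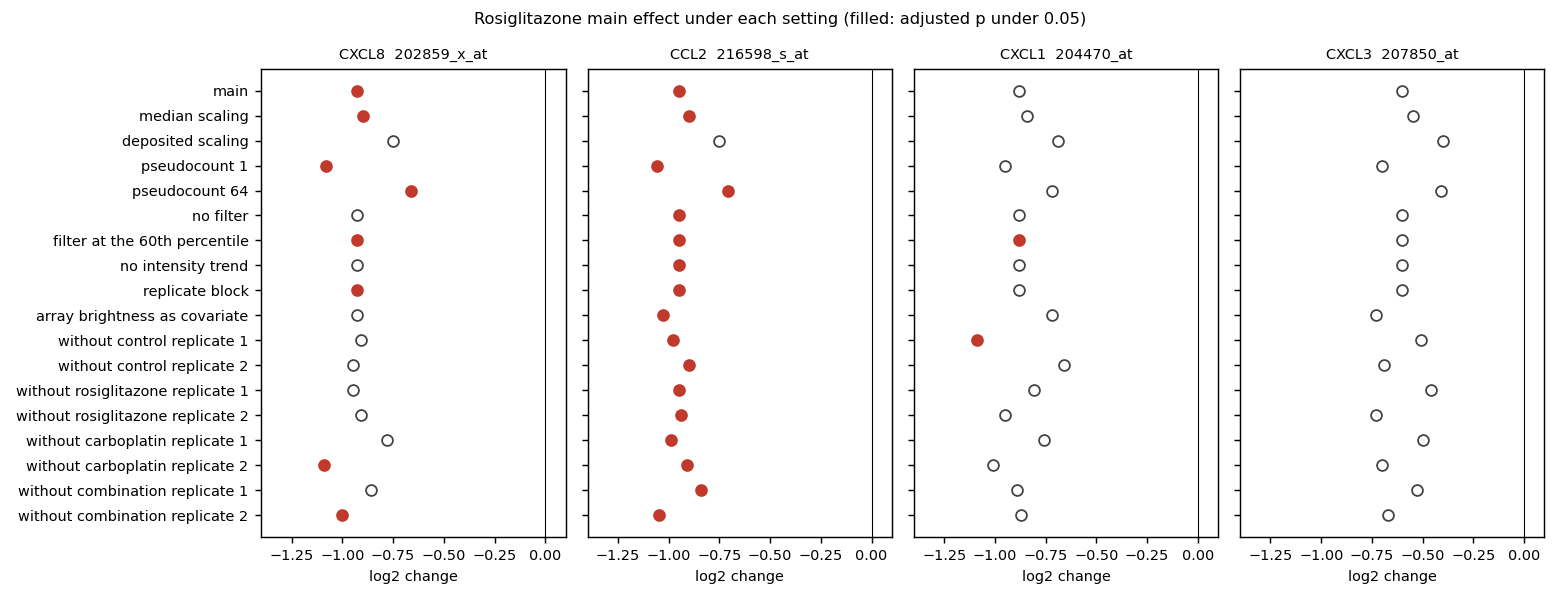
Rosiglitazone main effect (log2 change) of CXCL8, CCL2, CXCL1 and CXCL3 under each setting of the analysis; filled points passed an adjusted p of 0.05. All points lie below 0; CCL2 is filled in all rows but the deposited scaling, and CXCL8 is open in 10 of its 17 alternatives.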

How the data were processed

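Affymetrix human arrays of 8 samples were used. The deposited values are intensity values on a linear scale, 1 per probe set; their software, background correction and scaling: not given in the sources used here. Per the labels' protocols, an oligo-dT primer was used to make biotinylated target. Array medians on the log2(signal + 16) scale spanned 0.43, above a limit of 0.2, so values were quantile normalized (limma 3.58.1, R 4.3.3). The 68 control probe sets and those with a mean below the 40th percentile were left out, leaving 13338. A model with 1 coefficient per group was fitted with lmFit and eBayes (intensity trend; 4 residual and 7.1 prior degrees of freedom), with 8 two-sided contrasts. Probe sets with 1 symbol in the annotation (19071) were named. The fit was tested on simulated data. The chemokines, lists and alternatives were chosen with earlier results of these data known. Named beside the members are 5 genes most correlated with CXCL8 and, from each list, called genes and up to 4 others of smallest p in the rosiglitazone main effect. The number of arrays limits precision.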

Additional observations from a re-analysis of the deposited data

How the results depend on the processing

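With 2 arrays per group, calls depend on the setting. For rosiglitazone against control the count of 1 chemokine probe set called (CXCL8) became 0 with median scaling, the deposited scaling, a pseudocount of 1, no filter, no intensity trend, the replicate block and array brightness as a covariate, and was 0 to 1 leaving out single arrays. For the combination against control the count of 1 (CXCL8) became 0 with the deposited scaling, no filter and no trend, 2 with a filter at the 60th percentile, and 0 to 1 leaving out arrays. For the combination against carboplatin it was 0 to 1. For the rosiglitazone main effect the count of 2 (CXCL8 and CCL2) became 0 with the deposited scaling, 1 (without CXCL8) with no filter, no trend or the brightness covariate, and 1 to 3 leaving out arrays. A filter at the 60th percentile added CXCL1 to the main effect calls (adjusted p = 0.0403). With the deposited scaling all probe sets shifted by 0.17 in the main effect, relative to which CXCL8 and CCL2 were each at -0.92. That scaling turned 211506_s_at of CXCL8 to 0.02 for rosiglitazone against control and 214974_x_at of CXCL5 to 0.04 in the main effect. Relative to the shift of all probe sets in these comparisons (0.22 and 0.17) the 2 values were -0.2 and -0.13. The cause of the shift was not tested. Of 72 changes followed, 27 turned sign under at least 1 alternative, and none of the 4 called did. Over all probe sets the main effect count of 118 ran from 36 to 142, that of rosiglitazone against control (48) from 3 to 70, and that of the combination (30) from 5 to 46. Deviations of same-numbered arrays correlated from -0.11 to 0.25 between groups, so the numbers were not taken to pair the arrays, and the block left the main effect count at 2.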
